A study of Mus musculus with 16 samples.

Results

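ATP-binding cassette (ABC) exporters use the energy of ATP to move drugs, toxins and conjugated metabolites out of cells. The 8 genes described here were chosen by name and read in all 16 RNA sequencing libraries of the series, out of 55367 listed genes. They are Abcc1, Abcc2, Abcc3, Abcc4 and Abcc5, which encode the multidrug resistance-associated proteins that export glutathione, glucuronide and sulfate conjugates and cyclic nucleotides, Abcb1a and Abcb1b, the mouse gene pair for P-glycoprotein, and Abcg2, which encodes the breast cancer resistance protein. All 8 passed the filter on low counts, Abcc2 only because of the groups in which it was higher, and entered a test over 19509 genes.

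In drug disposition these pumps act after the enzymes: oxidation and reduction come first, conjugation follows, and export removes the product. Kidney tubule cells carry exporters on both their urinary and blood sides. Several of these genes are known targets of Nrf2 (gene Nfe2l2), the transcription factor that Keap1 holds down until electrophiles such as sulforaphane (SFN) modify Keap1.

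The cells were mIMCD3, an immortalized mouse line from the inner medullary collecting duct, a part of the kidney that is normally exposed to high salt and urea. There were 8 groups of 2 libraries. Wild-type (WT) cells received DMSO (vehicle) or 10 µM SFN for 5 h and were taken under isosmotic conditions, or after that medium had been exchanged for 600 mOsm medium for 1 h or 6 h. Nrf2-/- cells, made with lentiviral Cas9 and a guide and selected with blasticidin and puromycin, received SFN and were taken isosmotic or after 1 h. Nrf2-/- cells given DMSO were not analysed here, so the effect of the genotype and of the missing SFN response in that line cannot be told apart. The sources do not say whether the Nrf2-/- line was 1 clone, or whether the WT cells carried Cas9. The study's methods call the 2 libraries of a group biological replicates, without saying whether they were separate cultures of the line or were grown on separate days, and p-values measure the spread between these libraries. One label names primary tubule cells as the source of RNA, whereas all others name mIMCD3.

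Library totals ran from 34484296 to 50774875 counts. The 2 Nrf2-/- SFN 1 h libraries stood apart from each other, with a median absolute log2 difference per gene of 0.48, against 0.12 to 0.19 within the other 7 groups, and each member whose call changed when they were left out is given with and without them. Nfe2l2 itself was read at 64.0 to 149 CPM (each gene's count scaled to a fixed library size, with TMM, edgeR's correction for composition) in the 12 WT libraries and at 11.02 to 11.63 CPM in the 4 Nrf2-/- libraries, with a log2 difference of -2.67 (SE 0.10, adjusted p = 1.14e-10) under isosmotic SFN. Of 10 control targets of Nrf2, 9 were higher and 0 lower with SFN in isosmotic WT cells (median log2 fold change 1.23). In that comparison 2.84% of all genes were called. In isosmotic Nrf2-/- against WT SFN cells 9 were lower and 1 higher (median -1.68), beside 34.1% of all genes called. Epithelial markers were present in all groups, with summed levels of 1688 to 3344 CPM, while Aqp2 and Avpr2, markers of differentiated collecting duct principal cells, were at or near 0.

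The positions of the 8 genes are those of GENCODE on GRCm38. Abcc1 lies at chr16:14361558-14475737 (+), Abcc5 on the same chromosome at chr16:20331303-20426394 (-), Abcc2 at chr19:43782192-43840740 (+), Abcc3 at chr11:94343295-94392997 (-), Abcc4 at chr14:118482692-118706219 (-) and Abcg2 at chr6:58584523-58695676 (+). Abcb1a, at chr5:8660077-8748575 (+), and Abcb1b, at chr5:8798147-8866315 (+), are neighbours. The levels below are of whole genes. Small annotated genes overlap Abcc1, Abcc4, Abcb1a and Abcb1b, and the strand setting of the counting is not given in the sources used here.

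The P-glycoprotein pair differed most from each other between the lines, and its sequences are shown first. The coding sequences of Abcb1a and Abcb1b have 3828 bases each and are 88.0% identical, with a longest identical run of 338 bases. Of all 50-base stretches of the Abcb1a coding sequence, 20.3% also occur exactly in Abcb1b. A read that lies wholly within shared sequence cannot be assigned to either gene by sequence. The length of 50 bases is a setting here, not the read length, so the share of such reads was not measured. The 90-base window with the most mismatches (29) lies in exon 16 of both genes, in the linker between the first and the second ATP-binding domain. It is printed 5′ to 3′ with the mismatched bases in capitals, from chr5:8714894-8714983 (+) for Abcb1a and chr5:8827333-8827422 (+) for Abcb1b of GRCm38.
Abcb1a: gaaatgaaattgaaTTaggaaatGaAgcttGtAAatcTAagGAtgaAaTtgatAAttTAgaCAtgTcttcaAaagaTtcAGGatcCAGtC
Abcb1b: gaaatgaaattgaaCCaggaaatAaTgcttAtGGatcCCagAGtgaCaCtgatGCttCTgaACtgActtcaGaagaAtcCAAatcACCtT
By contrast, a window of the same length in exon 12, which codes for the first ATP-binding site, has 0 mismatches between chr5:8702153-8702242 (+) in Abcb1a and chr5:8824473-8824562 (+) in Abcb1b.
Abcb1a and Abcb1b: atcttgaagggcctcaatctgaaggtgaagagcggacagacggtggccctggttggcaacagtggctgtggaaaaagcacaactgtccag

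The other sequence shown is the promoter of Abcc4, the only member that passed the test for SFN in isosmotic cells. The 250 bases before the RefSeq start (chr14:118706220-118706469, - strand, GRCm38.p6) are printed 5′ to 3′, with capitals for a match to the antioxidant response element core (TGACNNNGC, here on the opposite strand, 25 bases before the start) and for 2 matches to the xenobiotic response element core (GCGTG, also on the opposite strand).
Abcc4: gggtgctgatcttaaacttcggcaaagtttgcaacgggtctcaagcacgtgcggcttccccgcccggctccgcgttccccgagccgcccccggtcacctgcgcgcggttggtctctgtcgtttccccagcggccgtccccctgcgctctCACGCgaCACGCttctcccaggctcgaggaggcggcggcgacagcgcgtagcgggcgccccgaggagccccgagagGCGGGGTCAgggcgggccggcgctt
The antioxidant response element core was found, on either strand, in 10.2% of 32851 mouse promoter windows of this length and in 3 of the 9 windows listed for members. These were both Abcc4 windows and that of Abcc2, where TGACATAGC stands 98 bases before the RefSeq start, inside the gene as GENCODE draws it. GCGTG was in 28.2% of windows and in 1 of the 9. The core TGGAAA, which the osmotic stress factor NFAT5 can bind, was in 18.6% of windows and in 1 of the 9, the second Abcc4 window, and the AP-1 site TGANTCA was in 6.75% of windows and in 0 of the 9. Abcc1 and Abcc3 had no window in the table. A match describes the letters only.

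The levels differed widely between members. Per kilobase of merged exons, Abcc4 was the highest in every group, with group means of 27.0 to 50.2 CPM per kb, followed by Abcc1 (14.89 to 26.03). Abcc5 stood at 6.00 to 8.86 CPM per kb. In WT cells Abcg2 (3.62 to 4.25), Abcb1b (2.79 to 4.51) and Abcc3 (1.44 to 3.36) came next, and Abcb1a (0.0986 to 0.323) and Abcc2 (0.00538 to 0.0970) were the lowest. Merged exons add up to 15092 bases for Abcc1 and 6389 for Abcc4, and a long exon that few transcripts use lowers the value per kb. Abcc4 and Abcc1 together made up most of the summed level of the 8 genes, which ran from 53.9 to 94.7 CPM per kb across libraries. All values in the following paragraphs are CPM, not divided by length, since they compare a gene with itself.

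**Figure D1:**
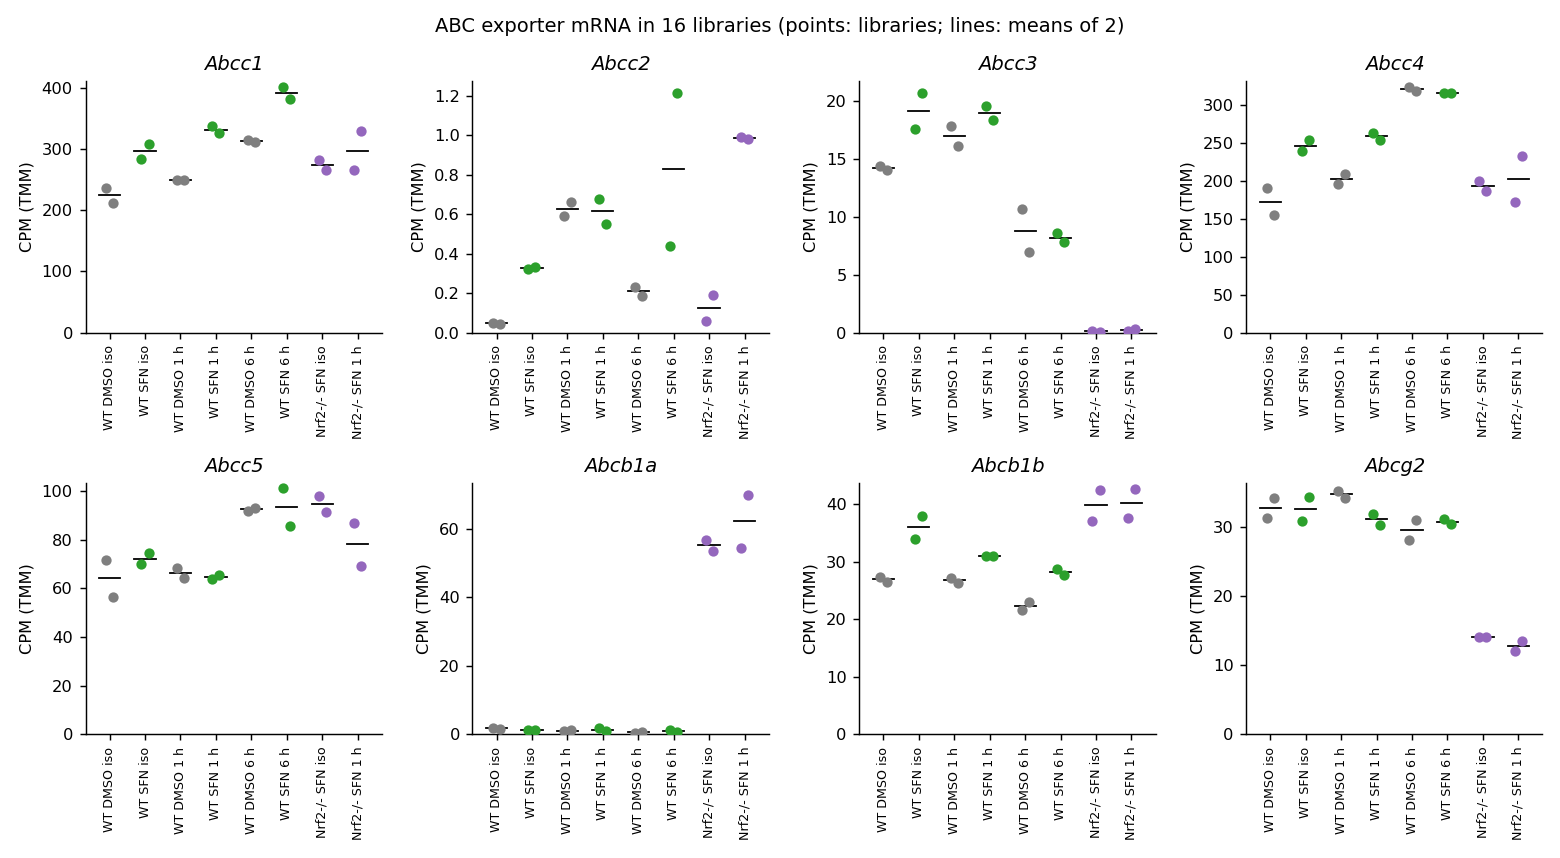
Level of each exporter in CPM (TMM-scaled, linear axes that start at 0 and differ between panels) in the 8 groups, with a point for each library and a line at the mean of 2. Grey is DMSO, green SFN in WT cells and purple Nrf2-/- cells given SFN, and the Nrf2-/- libraries stand apart from all WT libraries for Abcc3 and Abcg2 (below) and Abcb1a (above).

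The first question was whether SFN raised the exporters in WT cells. Under isosmotic conditions Abcc4, Abcc1, Abcb1b and Abcc3 were each about 1.3 to 1.4-fold higher with SFN, but 1 member, Abcc4, passed the test. Of the 8 members, 1 was higher and 0 were lower, against 2.84% of all genes called in either direction (1.09% higher, 1.76% lower). The median log2 fold change of the 8 was 0.41, beside 0 for all genes.

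Abcc4 exports cyclic nucleotides, prostaglandins and urate. It was read at 190 and 155 CPM with DMSO and at 239 and 253 CPM with SFN, so that both SFN libraries lay above both DMSO libraries. The log2 fold change was 0.51 (SE 0.13, adjusted p = 0.0494, edgeR's quasi-likelihood test with Benjamini-Hochberg adjustment, as for every adjusted p here). That call was lost without WT DMSO isosmotic replicate 2 (log2 fold change 0.37, adjusted p = 0.482), without WT SFN isosmotic replicate 1 (0.56, adjusted p = 0.132) and without replicate 2 (0.47, adjusted p = 0.323). It was also lost with RLE size factors (adjusted p = 0.0648), with a filter at 10 counts in every library (0.0584, where Abcb1b was called instead at 0.0467) and with the replicate number as a block (0.0758).

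Abcc1, the glutathione conjugate and leukotriene C4 exporter, was at 236 and 213 CPM with DMSO and at 284 and 309 CPM with SFN. The groups did not overlap, with a log2 fold change of 0.40 (SE 0.11, adjusted p = 0.0628). Abcb1b was at 27.4 and 26.5 CPM with DMSO and at 34.0 and 38.0 CPM with SFN, a log2 fold change of 0.42 (SE 0.11, adjusted p = 0.0620). Both lie just outside the threshold.

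Abcc2, the apical conjugate pump of liver and proximal tubule, was nearly silent. Its libraries held 2 counts each after DMSO, against 12 and 18 after SFN. The ratio of the summed, depth-scaled counts was 7.38 (95% exact Clopper-Pearson interval 2.60 to 28.8), with adjusted p = 0.0693. This interval, like every such interval here, covers counting error only. Abcc3, a basolateral glucuronide exporter, was at 14.4 and 14.1 CPM with DMSO and at 17.6 and 20.7 CPM with SFN (log2 fold change 0.43, SE 0.19, adjusted p = 0.286). Abcg2 had a log2 fold change of -0.01 (SE 0.11), Abcc5 of 0.17 (SE 0.13) and Abcb1a of -0.52 (SE 0.28), and the DMSO and SFN ranges of Abcg2 and Abcc5 overlapped.

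When the 2 Nrf2-/- SFN 1 h libraries were left out of the fit, 3 abundant members were higher with SFN under isosmotic conditions, against 14.5% of all genes. Abcc1 (log2 fold change 0.40, adjusted p = 0.000269) and Abcb1b (0.42, adjusted p = 0.00435) joined Abcc4. Abcc2, which entered the test through other groups, was also called in that fit (2.75, adjusted p = 0.0354).

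After 1 h of hyperosmotic stress SFN gave 0 calls among the 8 members, against 0.0923% of all genes called. By an unadjusted p under 0.05, 669 genes passed. Abcc1 was at 250 and 249 CPM with DMSO and at 338 and 327 CPM with SFN, a log2 fold change of 0.41 (SE 0.11, adjusted p = 0.575). Abcc4 was at 196 and 209 CPM with DMSO and at 263 and 254 CPM with SFN, a log2 fold change of 0.35 (SE 0.13, adjusted p = 1.00). Neither gene's groups overlapped. Without the 2 Nrf2-/- SFN 1 h libraries, both were called (adjusted p = 0.00184 for Abcc1 and 0.0303 for Abcc4), against 0.479% of all genes. DESeq2, another count test, also called 0 members.

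After 6 h SFN again gave 0 calls, against 0.041% of all genes, and 718 genes passed an unadjusted p under 0.05. Abcc1 was at 315 and 312 CPM with DMSO and at 403 and 383 CPM with SFN (log2 fold change 0.33, SE 0.11, adjusted p = 1.00), and it alone was called without the 2 Nrf2-/- libraries (adjusted p = 0.0444, against 0.213% of all genes). Abcb1b (0.34, SE 0.11), Abcb1a (0.72, SE 0.38) and Abcc2 (1.97, SE 0.61) also had both SFN libraries above both DMSO libraries, without a call. The ranges of Abcc3, Abcc5 and Abcg2 overlapped. Abcc4 showed no such gap at 6 h: it was at 323 and 318 CPM with DMSO and at 315 and 316 CPM with SFN (log2 fold change -0.02, SE 0.13). The SFN effect on Abcc4 at 6 h minus that under isosmotic conditions was -0.53 (SE 0.18, adjusted p = 0.319), and 0 members were called for this difference, against 0.759% of all genes (0.595% higher, 0.164% lower). Without the 2 Nrf2-/- SFN 1 h libraries it was -0.54 (adjusted p = 0.00383, against 3.96% of all genes called). For the SFN effect at 1 h minus the isosmotic one, 0 members were called, against 0.559% of all genes (0.487% higher, 0.0718% lower). The SFN medium had been exchanged at the start of stress. Stress and the time since that exchange therefore cannot be told apart in these differences.

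**Figure D2:**
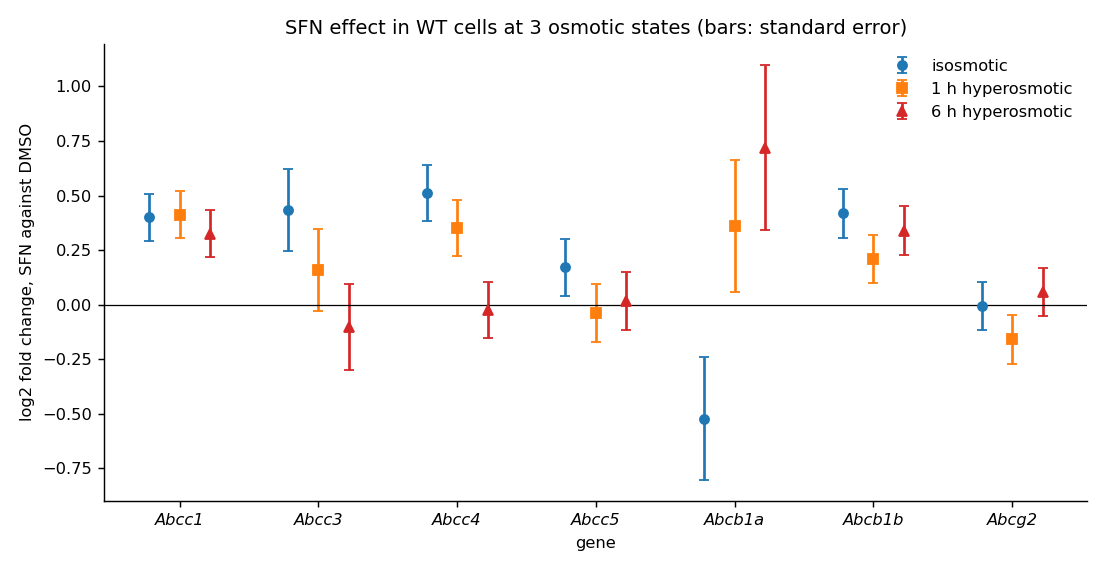
SFN effect in WT cells as the log2 fold change against DMSO, with its standard error, for 7 members in isosmotic cells (circles), after 1 h (squares) and after 6 h (triangles) of hyperosmotic stress. Abcc1 stayed between 0.33 and 0.41, whereas Abcc4 stood at 0.51, 0.35 and -0.02, and Abcc2 was left out because its counts were too few.

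The second question was how levels in stressed cells differed from those in isosmotic cells. No isosmotic group was labelled as kept for a further 1 h or 6 h after a medium exchange. Osmolality, elapsed time and the exchange therefore cannot be told apart in these comparisons. After 1 h in DMSO-treated WT cells 0 of the other 7 members were called and Abcc2 was, as higher, against 11.2% of all genes in either direction (7.1% higher, 4.11% lower). Its isosmotic libraries held 2 counts each and its 1 h libraries 26 and 25, a ratio of 13.9 (95% interval 5.11 to 53.0) with adjusted p = 0.00451. In Nrf2-/- SFN cells Abcc2 went from 2 and 7 counts to 35 and 34 (ratio 7.46, lower 95% bound 3.71, adjusted p = 0.0122), again with 0 of the other 7 members called, against 7.17% of all genes (4.36% higher, 2.81% lower). In SFN-treated WT cells, which began at 12 and 18 counts, it had 26 and 22 counts after 1 h (log2 fold change 0.90, SE 0.57, adjusted p = 0.426), and 0 members were called there, against 9.52% of all genes (5.94% higher, 3.58% lower). Without the 2 Nrf2-/- SFN 1 h libraries, Abcc4 (0.22, adjusted p = 0.0411) and Abcb1a (-0.74, adjusted p = 0.0473) were also called in DMSO-treated cells, against 22.1% of all genes.

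At no point did Abcc2 exceed 1.21 CPM, and it passed the filter on low counts through the groups in which it was higher, so its calls are not counted as support for a change of the group. With no filter on low counts, its adjusted p after 1 h was 0.000485 in DMSO-treated WT and 0.00287 in Nrf2-/- cells. The first call was lost without WT DMSO isosmotic replicate 2 (adjusted p = 0.0553) and the one in Nrf2-/- cells without Nrf2-/- SFN isosmotic replicate 1 (adjusted p = 0.113). Other nearly silent genes moved in the same libraries: Abcc8, Abcg5 and Abcg8, ABC genes of insulin-secreting cells and of sterol export, had 0 counts in all 4 isosmotic WT libraries and 12 to 43 counts in the 2 WT DMSO 1 h libraries. The number of genes with at least 1 count was 20449 to 21797 in isosmotic WT libraries and 23507 to 24242 in WT libraries after 1 h. The part of this rise in the Abcc2 values was not tested.

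After 6 h in DMSO-treated WT cells, 4 members were higher and 2 lower, beside 45.9% of all genes called, 23.9% as higher and 22% as lower. Abcc2 is 1 of the 4. The calls of Abcc4, Abcc1 and Abcb1a stood without any 1 of the 4 libraries, and those of Abcc5, Abcc3 and Abcc2 did not. Abcc4 went from 190 and 155 CPM to 323 and 318 CPM, the largest step among the abundant members (log2 fold change 0.89, SE 0.13, adjusted p = 6.11e-05). Abcc1 went from 236 and 213 CPM to 315 and 312 CPM (0.48, SE 0.11, adjusted p = 0.00202).

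Abcc5, which exports cyclic nucleotides and nucleotide analogues, went from 71.8 and 56.3 CPM to 91.9 and 92.8 CPM (log2 fold change 0.53, SE 0.13, adjusted p = 0.00450). It was not called without WT DMSO isosmotic replicate 2 (0.36, adjusted p = 0.0884). The counts of Abcc2 were 2 and 2 before and 8 and 6 after (ratio 4.01, 95% interval 1.26 to 16.7, adjusted p = 0.0438) and it lost its call with no filter on low counts (0.0871), without any 1 of the 4 libraries (adjusted p = 0.0858 to 0.162) or without the 2 Nrf2-/- SFN 1 h libraries (0.0610).

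Abcc3 and Abcb1a fell. Abcc3 went from 14.4 and 14.1 CPM to 10.7 and 6.92 CPM (log2 fold change -0.69, SE 0.19, adjusted p = 0.00878), and without WT DMSO 6 h replicate 2, the lower library, the change was -0.42 (adjusted p = 0.133). Abcb1a went from 82 and 72 counts to 16 and 20, that is from 1.95 and 1.59 CPM to 0.464 and 0.618 CPM (log2 fold change -1.71, SE 0.34, adjusted p = 0.000766). Abcb1b was at 21.6 and 23.0 CPM after 6 h (-0.27, SE 0.11, adjusted p = 0.0617, or 0.0128 without the 2 Nrf2-/- SFN 1 h libraries), and Abcg2 at 28.1 and 30.9 CPM (-0.15, SE 0.11, adjusted p = 0.310).

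In SFN-treated WT cells 6 h of stress gave 3 higher and 2 lower members, beside 47.6% of all genes called (24.7% higher, 22.9% lower). Abcc1 rose from 284 and 309 CPM to 403 and 383 CPM (log2 fold change 0.41, SE 0.11, adjusted p = 0.00612). Abcc4 rose from 239 and 253 CPM to 315 and 316 CPM (0.36, SE 0.13, adjusted p = 0.0329) and Abcc5 from 69.9 and 74.3 CPM to 101 and 85.7 CPM (0.37, SE 0.13, adjusted p = 0.0307). Abcc3 fell from 17.6 and 20.7 CPM to 8.61 and 7.79 CPM (-1.23, SE 0.19, adjusted p = 0.000121), with no overlap. The counts of Abcc2, 12 and 18 before and 15 and 39 after, gave a change of 1.32 (SE 0.57, adjusted p = 0.0705, or 0.0274 without WT SFN 6 h replicate 1). Abcb1b fell from 34.0 and 38.0 CPM to 28.7 and 27.7 CPM (-0.35, SE 0.11, adjusted p = 0.0179). Of 8 other settings that kept all libraries compared, 3 lost this call of Abcb1b, RLE size factors among them.

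Of these 5 calls that of Abcc3 alone stood without any 1 of the 4 libraries. Abcc4 lost its call without each of them (adjusted p = 0.0854 to 0.170), Abcc5 without WT SFN isosmotic replicate 1 or 2 or WT SFN 6 h replicate 1 (0.0819 to 0.274), Abcc1 without WT SFN isosmotic replicate 1 or WT SFN 6 h replicate 1 (0.0736 and 0.0564), and Abcb1b without 3 of the 4, namely WT SFN isosmotic replicate 2 and both WT SFN 6 h libraries (0.0570 to 0.145), and with RLE size factors (0.0639). In DMSO-treated WT cells the summed marker levels of every cell type list were higher at 6 h than under isosmotic conditions. The 4 immune markers summed to 2.69 to 3.18 CPM in isosmotic and 9.11 to 13.1 CPM in 6 h DMSO libraries, and the 3 endothelial markers to at most 0.177 and to 3.999 to 4.323 CPM. Between the same groups the 5 proximal tubule markers went from 9.06 to 11.5 CPM to 21.2 to 27.5 CPM, the 3 fibroblast markers from 2.70 to 3.10 CPM to 5.94 to 7.41 CPM, and the 12 collecting duct and epithelial markers from 2261 to 2527 CPM to 3329 to 3344 CPM. In these DMSO libraries the hepatocyte and loop of Henle markers stayed at or below 0.840 CPM. In SFN-treated WT cells the fibroblast sums overlapped, at 4.32 to 4.95 CPM isosmotic and 4.89 to 5.87 CPM after 6 h. The loop of Henle sum was 0 in both of these SFN groups. The part of these markers in the exporter values was not tested. In bulk RNA fewer cells of a kind and less RNA per cell cannot be told apart.

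**Figure D3:**
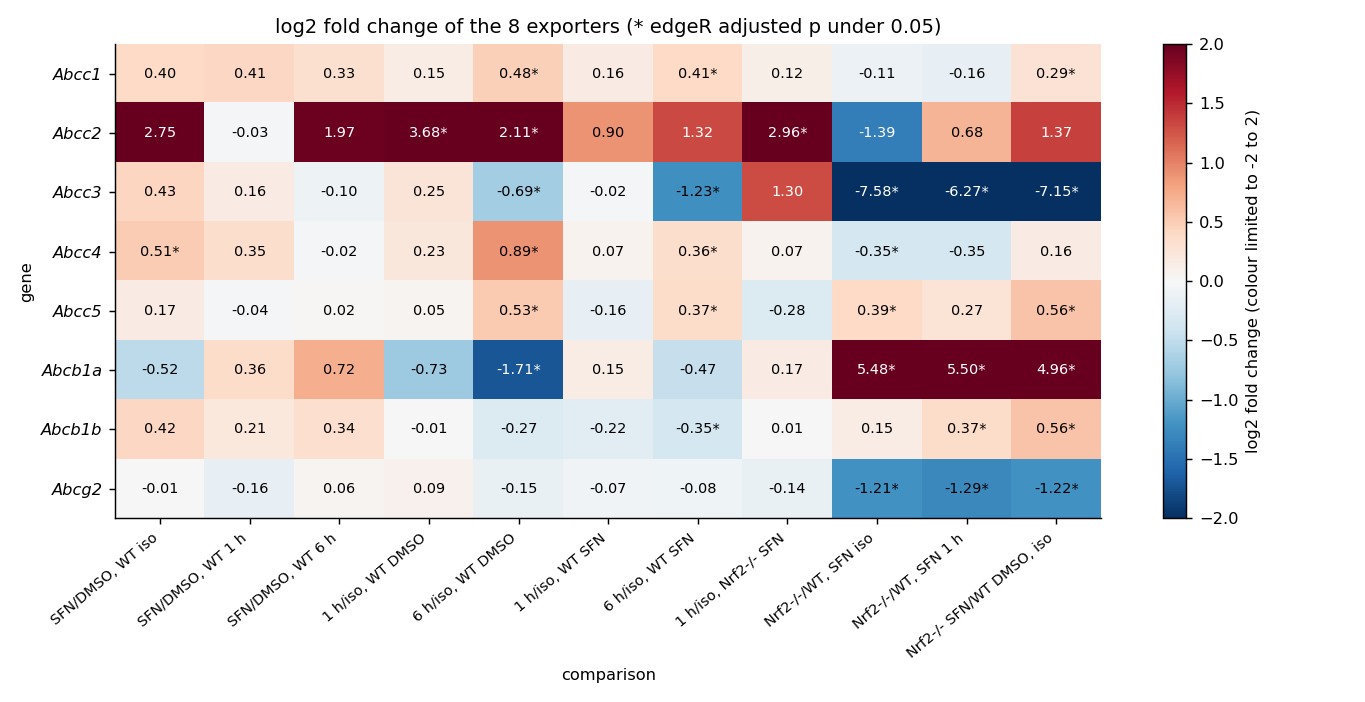
Log2 fold change of each member (rows) in 11 comparisons (columns), red for higher and blue for lower in the first-named group, with colour limited to -2 to 2 and an asterisk where edgeR's adjusted p was under 0.05. The Nrf2-/- columns hold the largest values, -7.58 for Abcc3 and 5.50 for Abcb1a, and the fitted values of Abcc2, and of Abcc3 in Nrf2-/- cells, rest on few counts.

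The third question was how exporter levels in Nrf2-/- cells differed from WT cells when both had received SFN. Under isosmotic conditions 2 members were higher and 3 lower, beside 34.1% of all genes called (15.7% higher, 18.4% lower). After 1 h of stress 2 were higher and 2 lower, beside 31.5% (15.3% higher, 16.2% lower). Abcc3 was nearly lost, Abcg2 fell to less than 0.5 of its WT level, and Abcb1a went from nearly silent to the fourth-highest member by CPM, and these 3 differences stood in each setting that kept the gene.

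Abcc3 was at 17.6 and 20.7 CPM in isosmotic WT SFN libraries, that is 657 and 1117 counts, and had 4 and 3 counts in the Nrf2-/- libraries. The ratio of WT to Nrf2-/- was 208 (95% exact Clopper-Pearson interval 101 to 518, counting error only), and the adjusted p was 3.27e-10. After 1 h the WT libraries held 749 and 734 counts and the Nrf2-/- libraries 6 and 11, a ratio of 83.7 (52.1 to 144, adjusted p = 7.38e-10). Against WT cells that had received DMSO, with 603 and 636 counts, the ratio was 148 (71.4 to 368, adjusted p = 7.09e-10), so the level in Nrf2-/- cells lay far below that of WT cells without SFN as well.

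Abcg2, the apical pump for urate and many drugs, was at 30.8 and 34.3 CPM in WT SFN and at 14.1 and 14.0 CPM in Nrf2-/- SFN libraries (log2 fold change -1.21, SE 0.11, adjusted p = 1.13e-06). After 1 h it was at 31.9 and 30.2 CPM in WT and at 12.01 and 13.44 CPM in Nrf2-/- cells (-1.29, SE 0.11, adjusted p = 7.77e-07). All 12 WT libraries, with or without SFN and stress, lay between 28.1 and 35.2 CPM, and Abcg2 was called in 0 of the comparisons among WT groups.

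Abcb1a moved the other way. It was at 1.153 and 1.297 CPM (43 and 70 counts) in isosmotic WT SFN libraries and at 56.9 and 53.6 CPM (1999 and 1995 counts) in the Nrf2-/- libraries. The log2 fold change was 5.48 (SE 0.27, adjusted p = 1.34e-09). After 1 h the levels were 1.80 and 0.949 CPM in WT and 54.3 and 70.0 CPM in Nrf2-/- cells (5.50, SE 0.27, adjusted p = 1.72e-09).

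Its neighbour Abcb1b moved far less. Abcb1b was at 37.1 and 42.5 CPM in isosmotic Nrf2-/- libraries, overlapping WT SFN (34.0 and 38.0 CPM, log2 fold change 0.15, SE 0.11, adjusted p = 0.349). After 1 h it was at 37.7 and 42.7 CPM against 31.0 and 31.0 CPM (0.37, SE 0.11, adjusted p = 0.0189), a call that was lost without Nrf2-/- SFN 1 h replicate 2 (adjusted p = 0.0787) or without either WT SFN 1 h library (0.109 and 0.110). Of 6 other settings that kept all libraries compared, 2 lost the 1 h call of Abcb1b. Per kb, Abcb1a made up 3.03 to 9.42% of the pair's sum in the 12 WT libraries and 64.8 to 70.5% in the 4 Nrf2-/- libraries. The sum of the pair was 2.79 to 4.99 CPM per kb in WT and 14.6 to 18.1 CPM per kb in Nrf2-/- libraries.

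A further gene next to Abcb1a, looked at after its values were seen, shared the difference. Rundc3b (chr5:8490334-8622952, - strand), a gene transcribed away from Abcb1a whose end toward it lies 37.1 kb before the Abcb1a start, was at 1.45 to 2.50 CPM in isosmotic WT SFN and at 48.4 to 52.3 CPM in isosmotic Nrf2-/- libraries (log2 fold change 4.64, SE 0.27, adjusted p = 7.41e-09). RefSeq starts Abcb1a further upstream, at the base after 8567090, within Rundc3b. On the other side of the pair, the neighbour Abcb4 had 0 counts in both isosmotic Nrf2-/- libraries and 5 and 20 in WT SFN, but after 1 h it was at 0.396 to 0.721 CPM in Nrf2-/- and 0.700 to 0.887 CPM in WT SFN libraries (adjusted p = 0.607). Under isosmotic conditions smaller differences were found for Slc25a40 (0.68, adjusted p = 0.00397), Crot (0.67, adjusted p = 0.000646) and Adam22 (1.25, adjusted p = 0.0237, but 0.13 and adjusted p = 0.845 after 1 h), and none was called for Dbf4, Dmtf1 and Tmem243.

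**Figure D4:**
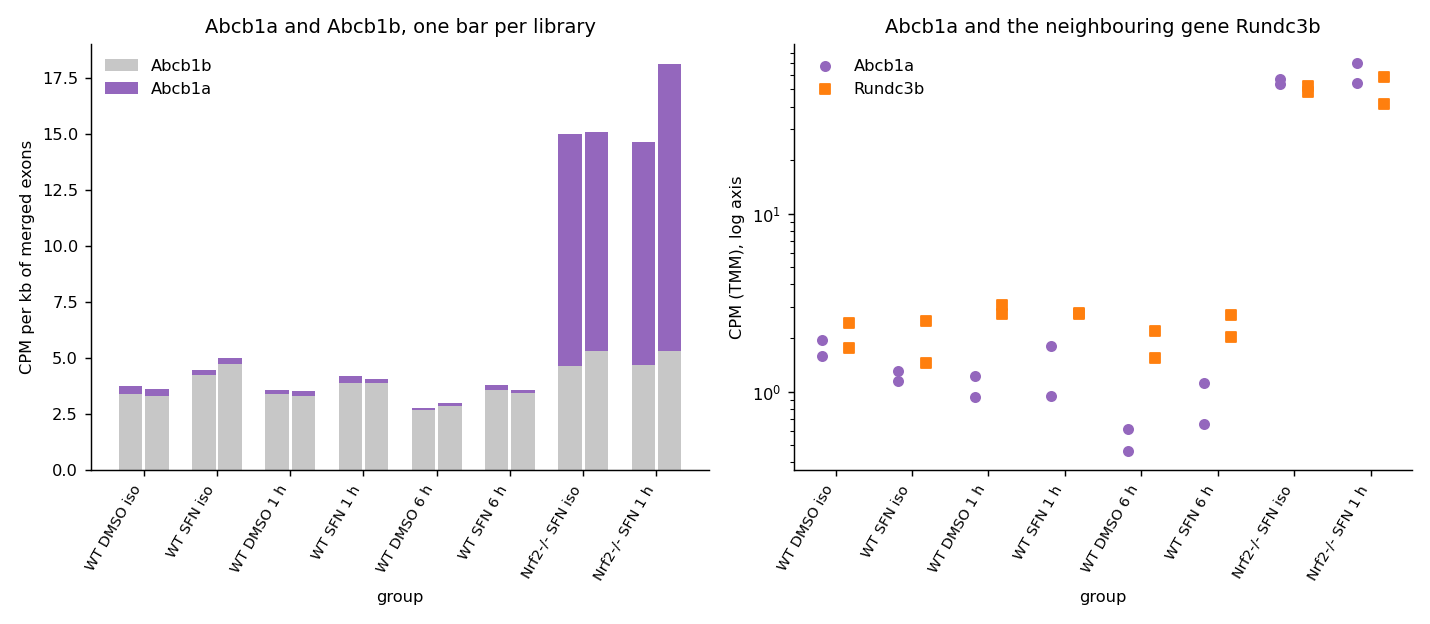
Left, level of Abcb1b (grey) and Abcb1a (purple) per kb of merged exons, stacked, with a bar for each library. Right, CPM of Abcb1a (circles) and Rundc3b (squares) in each library on a log axis, where both stand between 41.3 and 70.0 CPM in Nrf2-/- libraries and at or below 3.05 CPM in all WT libraries.

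The remaining differences between the lines were small. Abcc4 was at 200 and 186 CPM in isosmotic Nrf2-/- libraries and at 239 and 253 CPM in WT SFN (log2 fold change -0.35, SE 0.13, adjusted p = 0.0488). Abcc5 was at 98.0 and 91.2 CPM against 69.9 and 74.3 CPM (0.39, SE 0.13, adjusted p = 0.0326). Both calls were lost without any 1 of the 4 libraries, with adjusted p of 0.0996 to 0.227 for Abcc4 and 0.0774 to 0.185 for Abcc5. Abcc4 was also not called with DESeq2 (adjusted p = 0.100), RLE size factors (0.108), the filter at 10 counts (0.0707) or the replicate block (0.0633). Without the 2 Nrf2-/- SFN 1 h libraries the adjusted p was 0.000966 for Abcc4 and 0.000775 for Abcc5. After 1 h Abcc4 was at 172 and 232 CPM in Nrf2-/- cells, the wide gap of that group, against 263 and 254 CPM (-0.35, SE 0.13, adjusted p = 0.0504). Without Nrf2-/- SFN 1 h replicate 1 this was -0.14 (adjusted p = 0.255). Without replicate 2 it was -0.58 (adjusted p = 2.8e-05, against 28.8% of all genes called), and Abcc1 (-0.32, adjusted p = 0.00457) and Abcc5 (0.43, adjusted p = 0.0044) were called as well. Without replicate 1 of that group, the 1 h stress effect in Nrf2-/- cells was called for Abcc1 (0.26, adjusted p = 0.0261), Abcc4 (0.26, adjusted p = 0.0441) and Abcc5 (-0.46, adjusted p = 0.00423), besides Abcc2, against 23.9% of all genes.

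Isosmotic Abcc1 libraries lay close together, at 282 and 266 CPM in Nrf2-/- and 284 and 309 CPM in WT SFN libraries (log2 fold change -0.11, SE 0.11, adjusted p = 0.456). Set against WT cells that had received DMSO, Nrf2-/- SFN cells had 4 members higher and 2 lower, beside 38.8% of all genes called (18% higher, 20.8% lower). Abcc1 (0.29, SE 0.11, adjusted p = 0.0458), Abcc5 (0.56, SE 0.13, adjusted p = 0.00363) and Abcb1b (0.56, SE 0.11, adjusted p = 0.00106) were higher there, together with Abcb1a, while Abcc4 had a log2 difference of 0.16 (SE 0.13, adjusted p = 0.356). This comparison shares its Nrf2-/- libraries with the one above and joins genotype and SFN. The call for Abcc1 was lost without any 1 of the 4 libraries (adjusted p = 0.0575 to 0.292), and that for Abcc5 without WT DMSO isosmotic replicate 2 (0.0738). The 1 h stress effect in Nrf2-/- SFN cells minus that in WT SFN cells was called for 0 members, against 0.123% of all genes (0.0615% higher, 0.0615% lower), and 1433 genes passed an unadjusted p under 0.05.

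Markers of cell type differed between the lines too. Of 11 tested collecting duct and epithelial markers, 3 were higher and 3 lower in isosmotic Nrf2-/- against WT SFN cells. Their median log2 fold change was -0.09, and 34.1% of all genes were called there. Of this list Epcam (log2 fold change 2.54) and Cdh1 (1.62) were higher and Pax2 (-2.41) lower. The 5 proximal tubule markers summed to 2.50 to 3.33 CPM against 9.71 to 12.7 CPM. The part of such differences between the lines in the exporter values was not tested.

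The other ABC genes give the setting of the family. Of 42 further ABC genes in the files 28 were tested, and 0 were called for SFN in WT cells under any of the 3 osmotic states. Of all genes 2.84% were called there under isosmotic conditions, 0.0923% after 1 h and 0.041% after 6 h. At such shares, 0 of 28 says little about the family. After 6 h in DMSO cells 10 were higher and 9 lower, beside 45.9% of all genes called, with a median log2 fold change of -0.14 (0.17 for the 8 exporters, 0.05 for all genes). Abca4, a retinoid flippase, went from 2.38 and 1.24 CPM to 54.3 and 55.8 CPM (4.93, SE 0.30, adjusted p = 1.60e-08). In isosmotic Nrf2-/- against WT SFN cells 2 were higher and 8 lower, beside 34.1% of all genes called, with a median of -0.31 (-0.23 for the exporters, 0.00 for all genes). Abca5 was at 13.3 and 14.5 against 26.04 and 31.58 CPM (-1.06, SE 0.21, adjusted p = 0.00117).

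**Figure D5:**
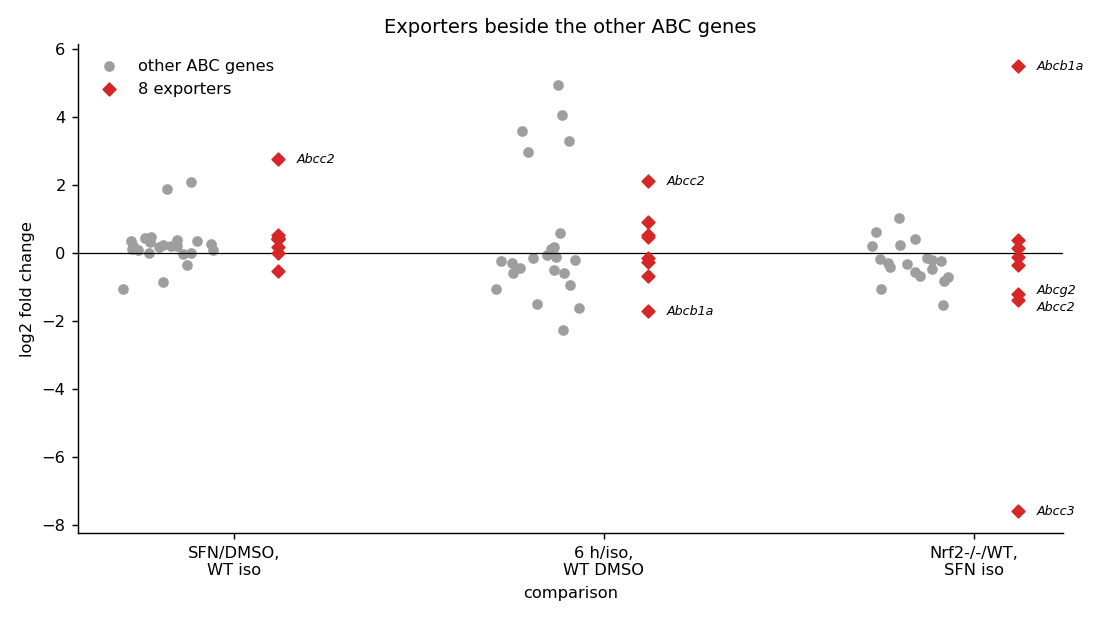
Log2 fold change of the 8 exporters (red diamonds, named where beyond 1 in size) and of the other tested ABC genes with more than 3 counts in both groups compared (grey circles) in 3 comparisons. In Nrf2-/- against WT SFN cells Abcc3 (-7.58) and Abcb1a (5.48) lie outside the range of the other ABC genes drawn (-1.52 to 1.03). The count rule left 9 other tested ABC genes out of this comparison, among them Abcb4 (-6.34), which had 0 counts in the Nrf2-/- libraries.

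The steps that feed the exporters were read as lists. Of 9 genes for glutathione supply, 4 were higher and 0 lower with SFN in isosmotic WT cells (median log2 fold change 0.29), where 2.84% of all genes were called, led by Slc7a11, the cystine importer (2.39), Chac1, a glutathione-degrading enzyme (1.98), and Gclc (1.24) and Gclm (1.22), the subunits of the first enzyme of glutathione synthesis. In isosmotic Nrf2-/- against WT SFN cells 1 was higher and 5 lower (median -0.49), and 34.1% of all genes were called there. Of 22 tested glutathione transferases, which make conjugates that Abcc1 and Abcc2 export, 2 were higher with SFN (Gsta1, 1.08, and Gsta4, 0.85) and 0 lower, and 13 were lower and 2 higher in Nrf2-/- cells (median -1.75). Gsta1 had 895 and 1482 counts in WT SFN and 0 and 0 in Nrf2-/- libraries. Of 9 tested genes of glucuronidation and sulfation, 0 were called with SFN, and in Nrf2-/- cells 3 were lower, among them Papss2 (207 and 298 counts in WT SFN, 2 and 7 in Nrf2-/-) and Ugdh (-1.22), which make the sulfate and glucuronate donors, and 2 were higher.

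Across the 12 WT libraries, which share groups, stress times and depth, Abcc1 and Abcc4 varied together (Pearson r of log2 CPM 0.90), as did Abcc4 and Abcc5 (0.83), whereas Abcc3 ran against Abcc5 (-0.78). The gene most like each member over these libraries was Rprd1a for Abcc1 (0.97), Slc27a3 for Abcc2 (0.88), Sass6 for Abcc3 (0.99), Cgas for Abcc4 (0.99), Tgfbr1 for Abcc5 (0.99), Pxmp2 for Abcb1a (0.91), Sf3b3 for Abcb1b (0.96) and Faf1 for Abcg2 (0.83). The lower values of Abcc2 and Abcb1a belong to the members with the fewest counts, and that of Abcg2 to the member with the narrowest range among WT libraries. The next in likeness were Sfpq and Parva for Abcc1, Gm12928 and Atg2b for Abcc2, Ints6 and Rngtt for Abcc3, Banp and Hyou1 for Abcc4, Eml4 and Lnpep for Abcc5, Ano9 and Exd2 for Abcb1a, Ahnak2 and Dock8 for Abcb1b, and Rmdn1 and Lrrc56 for Abcg2. These are descriptions over 12 libraries of 6 groups, with no test.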

How the data were processed

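The deposited files hold raw counts per gene symbol for each library, 1 file a library. The authors sequenced the RNA on an Illumina NovaSeq; the study's methods name Hisat2, Samtools and featureCounts, the submitters' processing notes name Bowtie2, SAMtools, featureCounts and mm10, and versions, annotation and strand are not given in the sources used here. Groups came from the sample labels. The WT SFN isosmotic files carry the numbers 2 and 3 where the titles say 1 and 2. From the counts, CPM were computed with TMM factors (edgeR 4.0.16, R 4.3.3). Genes were filtered with filterByExpr and fitted together (8 groups, 16 libraries) with edgeR's robust quasi-likelihood test; adjusted p under 0.05 (Benjamini-Hochberg over 19509 genes) was a call. Among counts of 1 to 10, 58.0 to 68.5% were even in each library; whether read ends or fragments were counted is not given, and counting intervals would be too narrow for read ends. Promoters came from RefSeq (GRCm38.p6), gene models from GENCODE (GRCm38). Alternatives were DESeq2 1.42.0, RLE factors, other filters, fewer libraries, a replicate block and leaving out each library. Further genes named were, for each list, up to 4 called genes with the largest fold change, and, for each member, the 3 genes most like it. The members and lists were chosen with earlier results of these data known. The result for 1 further gene that the rule would name is not reported here.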

Additional observations from a re-analysis of the deposited data

How the results depend on the processing

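In each case the share of all genes called in the same setting stands in parentheses. The counts include Abcc2, which entered the main test through other groups and is not counted as support. Abcc2 is among the members called under isosmotic SFN with DESeq2, with the 12 WT libraries and without the Nrf2-/- SFN 1 h libraries. The main counts for 1 h stress, with DMSO and in Nrf2-/- cells, are Abcc2 alone. The number of members called under isosmotic SFN (1, 2.84%) was 4 with DESeq2 (5.81%), 0 with RLE size factors (2.6%), 2 with no filter on low counts (3.16%), 5 with the 12 WT libraries alone (15.2%), 4 without the Nrf2-/- SFN 1 h libraries (14.5%), 0 with the replicate block (2.26%), 3 with the libraries compared alone (7.06%), and 0 to 1 when 1 library was left out (0.804 to 1.42%). With the 12 WT libraries, without the Nrf2-/- SFN 1 h libraries and with the libraries compared alone, it was 2 for SFN at 1 h (0 otherwise; 0.533, 0.479 and 4.95%), 1 for SFN at 6 h (0; 0.243, 0.213 and 0.623%) and 1 for the 6 h SFN effect minus the isosmotic one (0; 4.24, 3.96 and 2.53%). For 1 h stress with DMSO (1, 11.2%) it was 2 with no filter (7.93%), 0 with at least 10 counts in every library (5.36%), 2 with the 12 WT libraries (22.9%), 3 without the Nrf2-/- SFN 1 h libraries (22.1%) and 0 to 1 with 1 library left out (4.45 to 5.94%). For 6 h stress with SFN (5, 47.6%) it was 3 with at least 10 counts (52.9%) and 2 to 3 with 1 library left out (33.0 to 34.8%), and for Nrf2-/- against WT SFN, isosmotic (5, 34.1%), 3 in both (45.9%, and 21.1 to 24.9%). For 1 h stress in Nrf2-/- cells (1, 7.17%) it was 0 with at least 10 counts (2.42%), 0 with the libraries compared alone (0.045%) and 0 to 4 with 1 library left out (2.53 to 23.9%). The filter at 10 counts removes Abcc2 and Abcc3; the other causes were not tested.

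The tally of recomputed log2 fold changes covers only the 47 pairs of a member and a comparison that were called in at least 1 setting. Of the recomputed values of these pairs, 424 kept direction and side of the threshold, 56 lost and 40 gained a call, and 3 reversed. Abcc1 in Nrf2-/- against WT SFN at 1 h ranged from -0.32 to 0.0022 with 1 library left out (0.0022 without Nrf2-/- SFN 1 h replicate 1), and the 1 h stress effect in Nrf2-/- cells from -0.0455 to 0.26 for Abcc1 and from -0.16 to 0.26 for Abcc4 (negative without replicate 2). Differences between replicates 1 and 2, over all tested genes, were hardly correlated between the groups compared (-0.0794 to 0.0411). With 1 such difference per group, this cannot show whether same-numbered libraries were handled together. The replicate block also moved the isosmotic Nrf2-/- counts from 5 to 4 against WT SFN and from 6 to 5 against WT DMSO. It moved no other member count than these and the one above. RLE moved the median of all genes by at most 0.09. Depth limits Abcc2 in all groups and Abcc3 in Nrf2-/- cells.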

Other observations

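The genes that bring organic anions and cations into cells, and the phase 1 enzymes, were also read. Of 10 tested uptake and MATE transporters, 3 were higher and 3 lower after 6 h with DMSO, where 45.9% of all genes were called. Slco4a1, an organic anion and thyroid hormone carrier, went from 19.5 and 18.9 CPM to 1015 and 1069 CPM (log2 fold change 5.77, SE 0.10, adjusted p = 6.69e-14), and Slco5a1 from 5.81 and 4.16 CPM to 15.99 and 16.67 CPM (1.71). In isosmotic Nrf2-/- against WT SFN cells 1 was higher and 4 lower, where 34.1% of all genes were called. Slco4a1 had 524 and 782 counts in WT SFN and 6 and 6 in Nrf2-/- libraries, and Slco2a1, the prostaglandin carrier, fell from 139 and 154 CPM to 38.5 and 33.8 CPM (-2.02). With SFN in isosmotic WT cells Slco4a1 alone of the list was called, as lower (-0.42, adjusted p = 0.0160).

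Of 11 tested phase 1 enzymes, 1 was called with SFN in isosmotic WT cells (Nqo1, higher; 2.84% of all genes), and 6 were lower and 1 higher in Nrf2-/- cells (34.1% of all genes). Cyp1b1 had 1468 and 2353 counts in WT SFN and 6 and 0 in Nrf2-/- libraries, while Akr1c13 was at 17.5 and 16.6 CPM in Nrf2-/- against 3.67 and 2.85 CPM in WT SFN libraries (2.39). Of 18 tested regulators of these genes, 8 were higher and 3 lower after 6 h with DMSO (45.9% of all genes), and of 7 tested membrane anchors of exporters, 3 were higher and 2 lower in isosmotic Nrf2-/- cells (34.1% of all genes).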
